A study of Mus musculus with 8 samples.

Results

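A set of 3 enzymes of the intestinal mucosa, the phospholipase Pla2g4c, the carboxypeptidase Cpvl and the mast cell protease Mcpt2, were followed mouse by mouse in ileal RNA after duodenal-jejunal bypass (DJB). Each was represented by 1 probe of 60 bases (MOUSELNCRNA_36147 for Pla2g4c, MOUSELNCRNA_85199 for Cpvl and MOUSELNCRNA_89425 for Mcpt2), so the account covers 3 of the 90752 transcript probes on the array. All 3 were chosen from the study's list of its most increased mRNAs, that is by their fold change between DJB and sham mice on these same arrays, so that a higher signal after DJB is given by the choice. Their differences between the groups are given as a description, without a test. The RNA came from the ileum of male C57BL/6 mice that were 6 weeks old when a high-fat diet began, had eaten it for 12 weeks, had become obese and hyperglycaemic, and were then randomized to DJB or sham surgery. The DJB group (n = 4) received a bypass with a biliopancreatic limb of 5 cm and a Roux limb of 4 cm. In the sham group (n = 4) the abdomen was opened under anaesthesia and the intestine was left uncut. Tissue was taken 2 weeks after surgery, and 1 array was hybridized per mouse. No lean or unoperated animals were on these arrays, so both groups share the diet and an operation. One label of the series names the duodenum in its extraction text, while the source and tissue labels name the ileum. The planned check of the tissue against markers of the ileum was not possible, because the files give probes without gene names.

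Pla2g4c is the gamma member of the group IV cytosolic phospholipases A2, enzymes that cut a fatty acid from membrane glycerophospholipids and leave a lysophospholipid. Where the fatty acid is arachidonic acid, it can be used to make prostaglandins and leukotrienes. Cpvl is a serine carboxypeptidase first described in macrophages, which removes amino acids from the C-terminus of peptides. Mcpt2 belongs to the granule serine proteases of mucosal mast cells, the mast cells that lie within the gut epithelium and lamina propria and multiply during infections with intestinal worms. In the RefSeq annotation of GRCm38.p6, Pla2g4c lies on chromosome 7 and Cpvl on chromosome 6. Mcpt2 lies on chromosome 14, between Mcpt1 and Mcpt9 in a cluster that also holds Mcpt4, Mcpt8 and Cma2. The files name no build for the array, and the part of each transcript that a probe covers was not analysed here.

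The probe sequences are shown because they decide what each signal can stand for. The Pla2g4c and Cpvl probes had no close relative on the array, whereas the Mcpt2 probe had 2. In the Mcpt2 probe, capitals mark the stretch aligned with at least 1 of these relatives. In the relatives, which have no gene name in the files, capitals mark the bases identical to the Mcpt2 probe.
Pla2g4c: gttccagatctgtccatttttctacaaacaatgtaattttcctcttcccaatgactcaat
Cpvl: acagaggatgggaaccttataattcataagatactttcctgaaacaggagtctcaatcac
Mcpt2: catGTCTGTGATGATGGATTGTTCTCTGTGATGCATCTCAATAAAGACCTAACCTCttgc
MOUSELNCRNA_84129: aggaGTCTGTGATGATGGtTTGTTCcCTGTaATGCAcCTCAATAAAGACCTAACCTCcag
MOUSELNCRNA_13511: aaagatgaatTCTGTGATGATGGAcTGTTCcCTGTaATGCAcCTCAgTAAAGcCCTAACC

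The signal used throughout is the relative log2 signal, that is log2 of the background-subtracted intensity minus the 75th percentile of the same array, so that 0 stands for a probe as bright as that percentile. In unscaled intensity, this percentile was 413 to 439.8 in sham and 342 to 349 in DJB mice. The detected share, probes well above background, ran from 71.5% to 74.6% per array, and no spot of a transcript probe was saturated. Each group had a slide to itself, and slide and surgery therefore cannot be told apart in any value given here. Each probe was printed at 2 places on every array, which gives a technical repeat within each mouse.

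The Pla2g4c signal was very high after DJB and near the 75th percentile of the array after sham surgery. It was 0.05, 0.06, -0.82 and -1.38 in sham-1 to sham-4, and 7.53, 8.05, 3.91 and 5.32 in DJB-1 to DJB-4. Every DJB mouse was far above every sham mouse, and the lowest DJB mouse, DJB-3, exceeded the highest sham mouse, sham-2, by 3.85 on the log2 scale. The DJB mean of 6.20 ± 1.93 (SD, n = 4) stood against a sham mean of -0.52 ± 0.70 (SD, n = 4). Their difference of 6.72 on the log2 scale, a 106-fold higher signal, was the largest among the 830 probes called higher over the whole array. A call required a fold change of 2 or more together with a limma adjusted p under 0.05. It was met upward by these 830 probes, 1.29% of the 64408 tested, downward by 2.30%, and in either direction by 3.59%. All 3 enzyme probes were among the 830, and Pla2g4c also heads the study's list of increased mRNAs. Both this membership and the first place of Pla2g4c go with the choice of the probes, and nothing is read from them.

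Both spots of the Pla2g4c probe gave the same picture. In DJB-1 the spots gave 7.42 and 7.64, in DJB-2 they gave 8.01 and 8.08, in DJB-3 they gave 3.80 and 4.02, and in DJB-4 they gave 5.14 and 5.50. The second spot was the brighter one on 8 of 8 arrays, by 0.07 to 0.36 on the log2 scale, a gap small beside the differences between the mice. Processed intensities ranged from 165 to 472 in the sham mice and from 4755 in DJB-3 to 93414.5 in DJB-2. All spots were well above background.

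Within the DJB group the Pla2g4c signal varied far more than at most probes. The highest DJB mouse had 17.6 times the signal of the lowest. The SD among the DJB mice was larger than at 99.97% of the tested probes, and larger than at 99.04% of the probes called higher. Without DJB-3 the difference from the sham mice was 7.49, and without DJB-2 it was 6.11, which moves the fold change by more than 1.5 times in either direction.

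The Cpvl signal was detected in every DJB mouse and barely detected after sham surgery. It was -5.17, -5.45, -5.99 and -5.89 in sham-1 to sham-4, and -0.63, -0.96, -2.25 and -2.28 in DJB-1 to DJB-4. The groups did not overlap, with a gap of 2.89 on the log2 scale between DJB-4 and sham-1. The DJB mean of -1.53 ± 0.86 (SD, n = 4) lay 4.10 above the sham mean of -5.63 ± 0.38 (SD, n = 4).

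The size of this Cpvl difference depends on how a signal near background is treated. The probe stood well above background in each of the 4 DJB mice. Among the 4 sham mice it did so in 1, sham-1, and there at only 1 of the 2 spots. Sham intensities lay between 4.43 and 12.5, against 69.6 to 225.5 in the DJB mice. With normexp background correction, which adds an offset of 50 to every intensity, the difference was 1.59 in place of 4.10. The direction was the same, and the gap between the groups was then 0.91. The 17.1-fold ratio of the group means is therefore approximate. Detection in every DJB mouse does not rest on this ratio, but it is no separate support. The probe was chosen for its higher signal after DJB. It met the filter for testing, detection on all arrays of a group, only through the DJB mice.

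The Cpvl spots agreed closely where the probe was detected. The spots of DJB-1 gave -0.64 and -0.63, those of DJB-2 gave -1.01 and -0.90, those of DJB-3 gave -2.30 and -2.20, and those of DJB-4 gave -2.27 and -2.29. In sham-4 they differed by 1.495 (intensities of 4.43 and 12.5), a wider gap than at 97.1% of the probes on that array, and neither spot was well above background there.

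The Mcpt2 signal was higher after DJB on average, but its lowest DJB mouse was level with its highest sham mouse. It was 0.16, -1.33, -1.29 and -0.51 in sham-1 to sham-4, and 5.35, 2.87, 0.29 and 2.08 in DJB-1 to DJB-4. DJB-1 stood well above all other mice, and DJB-3 exceeded sham-1 by only 0.13 on the log2 scale. The DJB mean of 2.65 ± 2.10 (SD, n = 4) lay 3.39 above the sham mean of -0.74 ± 0.71 (SD, n = 4), a 10.5-fold ratio.

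Whether the Mcpt2 groups overlapped depended on the scaling of the arrays. DJB-3 lay above sham-1 with the 75th percentile scaling, in the authors' log2 values, with normexp correction and at either spot alone, by 0.12 to 0.14. With no scaling DJB-3 lay 0.15 below sham-1 (a gap of -0.15), and with spike-in scaling the gap was -0.18, so that 3 of the 4 DJB mice were then above every sham mouse. Those scalings also moved the median difference over all tested probes, from 0.08 to -0.21 and -0.24. The Pla2g4c and Cpvl groups stayed apart under each of these settings. Such separation is in large part given by the choice of the probes. The share of all tested probes with separate groups is not given here, so nothing is read from it.

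**Figure D1:**
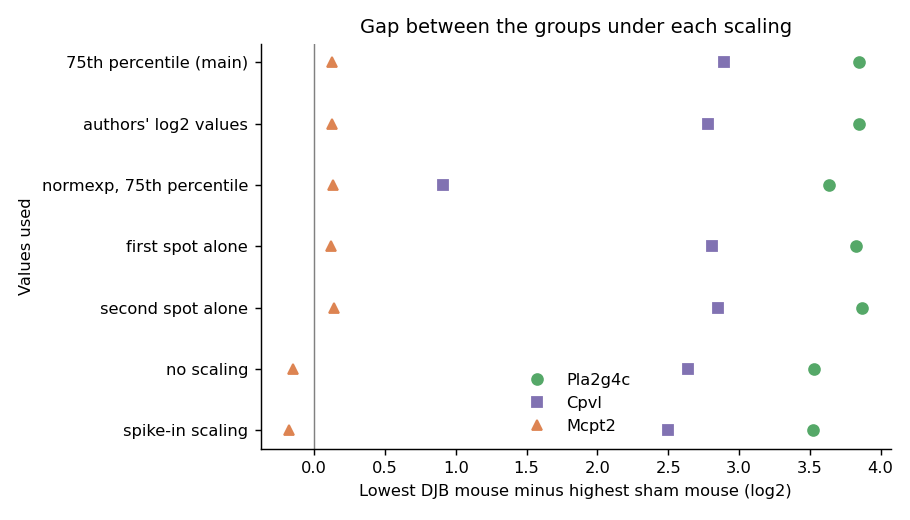
Gap on the log2 scale between the lowest DJB mouse and the highest sham mouse (horizontal axis) for the 3 probes under 7 ways of obtaining the values (vertical axis). Points right of 0 mean that the groups do not overlap. Mcpt2 lies at 0.12 to 0.14 in 5 settings and at -0.15 and -0.18 in the other two, while Cpvl falls to 0.91 with normexp and Pla2g4c stays at 3.52 or above.

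The Mcpt2 spots agreed to within 0.13 on the log2 scale on every array except sham-2. There the spots had intensities of 97.0 and 296.1, a difference of 1.61, wider than at 97.6% of the probes on that array. Neither spot carried an outlier flag, so both entered the mean. Without sham-2 the difference between the groups was 3.19. The spread among the DJB mice counted for more. The highest DJB mouse had 33.4 times the signal of the lowest, an SD larger than at 99.98% of all tested probes. The difference was 2.49 without DJB-1 and 4.17 without DJB-3, each a change of more than 1.5 times in the fold.

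**Figure D2:**
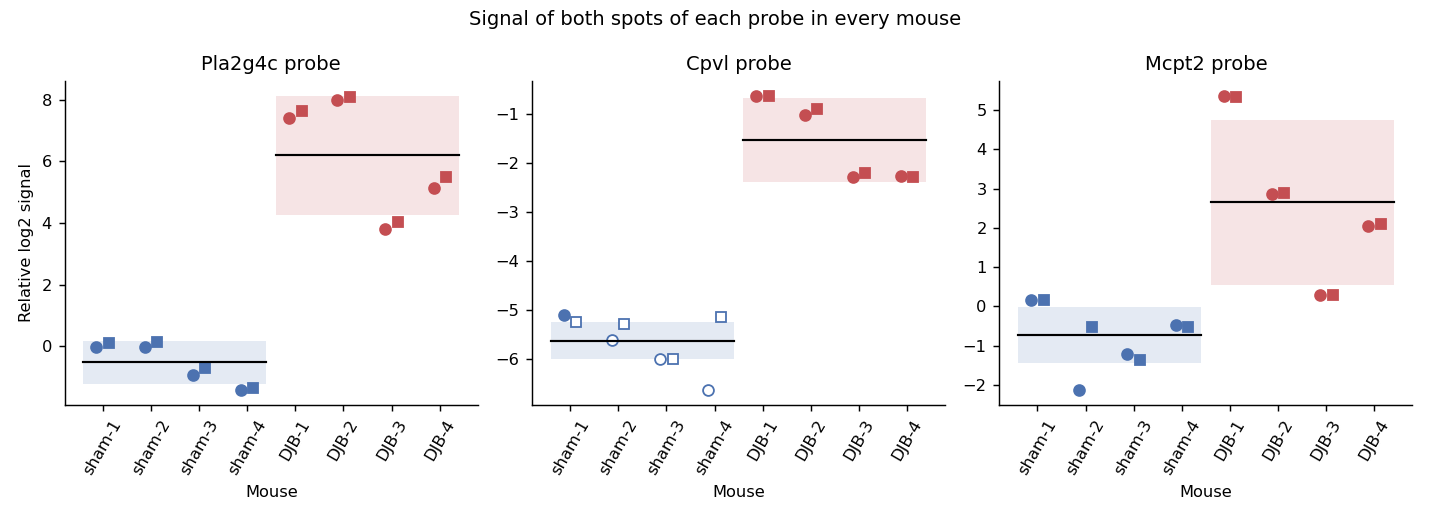
Relative log2 signal (vertical axis, a separate scale for each probe) of the first spot (circles) and the second spot (squares) in every mouse. Filled symbols are well above background, open symbols are not, lines are group means and bands are 1 SD (n = 4). Spots of a mouse lie close together except for Cpvl in sham-4 and Mcpt2 in sham-2, and the DJB-3 spots of Mcpt2 lie just above those of sham-1.

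These are bulk tissue values. A higher signal can come from more cells of a kind or from more RNA per cell, and with no marker of mast cells or macrophages named in the files these cannot be told apart.

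The order of the DJB mice was alike in part among the 3 enzymes. From high to low it was DJB-2, DJB-1, DJB-4, DJB-3 for Pla2g4c, DJB-1, DJB-2, DJB-3, DJB-4 for Cpvl, and DJB-1, DJB-2, DJB-4, DJB-3 for Mcpt2. In all 3, DJB-1 and DJB-2 were above DJB-3 and DJB-4. The enzymes differed in which mouse led, DJB-2 for Pla2g4c and DJB-1 for the others, and Cpvl alone had DJB-4 at the bottom.

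Most of these steps were larger than the disagreement between spots. The spots are repeats within a mouse, on the same array, and do not measure variation between arrays. For Pla2g4c, DJB-2 exceeded DJB-1 by 0.45 and 0.59 at the separate spots, DJB-1 exceeded DJB-4 by at least 2.14, and DJB-4 exceeded DJB-3 by at least 1.35. For Mcpt2 the steps were at least 2.45 from DJB-1 to DJB-2, 0.78 from DJB-2 to DJB-4 and 1.77 from DJB-4 to DJB-3. For Cpvl, DJB-1 exceeded DJB-2 by 0.27 and 0.38 and DJB-2 exceeded DJB-3 by at least 1.28. The last step of Cpvl was not resolved, since DJB-3 and DJB-4 differed by 0.03 and changed places between the spots. With DJB-3 and DJB-4 taken as level for Cpvl, no step of the Cpvl order ran opposite to that of Mcpt2. The orders still differed there, since Mcpt2 had DJB-4 above DJB-3 by 1.79.

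The mice did not keep the same distances. Against the mean of the sham mice, DJB-1 was 8.05 higher on the log2 scale for Pla2g4c, 4.995 higher for Cpvl and 6.09 higher for Mcpt2. DJB-2 was 8.57, 4.67 and 3.61 higher in the same sequence of genes. DJB-3 was 4.43, 3.38 and 1.03 higher, and DJB-4 was 5.84, 3.35 and 2.82 higher. From DJB-1 to DJB-2 the Mcpt2 signal fell by 2.48 while the Pla2g4c signal was 0.52 higher.

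**Figure D3:**
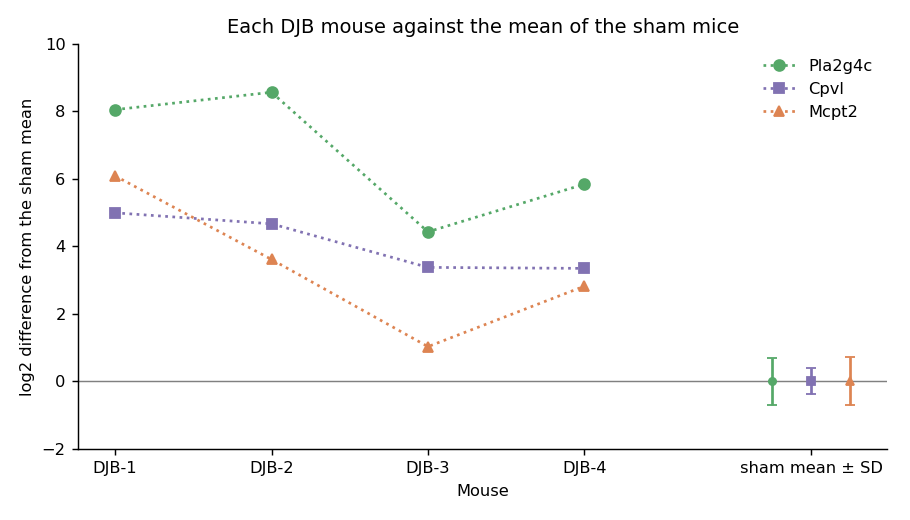
log2 difference of each DJB mouse from the mean of the sham mice (vertical axis) for Pla2g4c (circles), Cpvl (squares) and Mcpt2 (triangles), with the sham SD (n = 4) around 0 at the right. Dotted lines only join the values of one probe. DJB-1 and DJB-2 lie above DJB-3 and DJB-4 for each enzyme, and the Mcpt2 value of DJB-3 is 1.03.

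This shared split was frequent among the probes called higher. DJB-1 and DJB-2 were both above DJB-3 and DJB-4 at 17.3% of the 64403 tested probes with a value in every DJB mouse, and at 371 of the 830 probes called higher (44.7%). Among the 1477 probes called lower that had a value in every DJB mouse, DJB-1 and DJB-2 were both below DJB-3 and DJB-4 at 20.3% and both above at 9.21%. Among the probes called higher, the next most frequent pair at the top was DJB-1 with DJB-3, at 15.5%. Among the probes called higher, the Pla2g4c order was the most frequent (16.1%) and the Mcpt2 order the second (13.3%), with the Cpvl order at 6.02%. Over all 64403 tested probes these shares were 6.27%, 3.36% and 2.77%, and the Pla2g4c order was the most frequent there too. The Cpvl share rests on the unresolved step between DJB-3 and DJB-4. At its first spot the Cpvl order was that of Mcpt2. The probes of these counts share the same 4 mice and are not independent. The share of probes well above background was lower in DJB-1 (73.6%) and DJB-2 (72.4%) than in DJB-3 (73.96%) and DJB-4 (73.99%). In this share DJB-1 lay nearer to DJB-3 and DJB-4 than to DJB-2. The 75th percentile of intensity did not part these pairs. It was 348.5 in DJB-1, 346.4 in DJB-4, 344.4 in DJB-2 and 341.9 in DJB-3. The part of detection in the order of the mice was not tested.

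The sham mice had no order in common. Pla2g4c was highest in sham-2 and sham-1 and lowest in sham-4. Mcpt2 was highest in sham-1 at both spots, while sham-2 was lowest at the first spot (-2.13) and second highest at the second spot (-0.52). The order of the Cpvl sham values changed between the spots as well.

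The pattern over all 8 arrays was then compared with that of every other tested probe, as the root mean square (RMS) difference after each probe's mean was subtracted. Lower values mean a closer pattern. This distance includes the difference between DJB and sham by which the 3 enzymes were chosen, so nearness among them is in large part given by the choice. For Mcpt2 the closest of 64370 other probes were MOUSELNCRNA_84129 and MOUSELNCRNA_13511, at 0.28 and 0.42, followed by an unnamed probe with no such sequence at 0.47. Those first 2 are the probes printed above for their sequence. For Cpvl the closest were 3 unnamed probes at 0.53, 0.57 and 0.59, all higher after DJB by 3.56 to 4.22. For Pla2g4c the closest were 2 unnamed probes at 1.08 and 1.18, and the third was Cpvl at 1.53. Seen from the other side, Pla2g4c was only in place 430 for Cpvl and 3003 for Mcpt2. Pla2g4c had both the largest difference among the probes called higher and a DJB SD larger than at 99.97% of the tested probes. The part of each in its wider distances was not tested. Between Cpvl and Mcpt2 the distance was 1.01, and between Pla2g4c and Mcpt2 it was 1.92.

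The relatives of the Mcpt2 probe were found by sequence alone, through local alignment with all other 90751 transcript probes. A match scored 1, a mismatch -1 and a gap -2. MOUSELNCRNA_84129 scored 45, with 49 of 53 aligned bases identical (92.5%) and a longest shared run of 20 bases. MOUSELNCRNA_13511 scored 38, with 44 of 50 bases identical (88.0%) and a longest run of 14. The next probe scored 22, and the best scores for Pla2g4c and Cpvl were 21 and 18, below the minimum of 30 set for a relative. Which transcripts the relatives were designed for is not given in the sources used here. Chymase genes of the mast cell cluster are known to resemble one another, and a probe can bind RNA from a close relative of its target, so the share of each transcript in the 3 signals was not tested.

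Both relatives had a higher signal after DJB. MOUSELNCRNA_84129 gave 0.57, 0.06, -0.62 and 0.08 in sham-1 to sham-4, and 6.08, 3.45, 0.89 and 2.64 in DJB-1 to DJB-4. MOUSELNCRNA_13511 gave -0.66, -1.21, -1.505 and -1.03, and 4.32, 1.76, -0.38 and 0.94 in the same mice. As for Mcpt2, DJB-1 was far above the rest and DJB-3 lay near the highest sham mouse, by 0.33 and 0.29 above it. The DJB order was that of Mcpt2 at both probes and at both of their spots.

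In the limma fit over the 64408 tested probes, the difference was 3.24 (SE 0.92, adjusted p = 0.0249) at MOUSELNCRNA_84129 and 2.76 (SE 0.84, adjusted p = 0.0318) at MOUSELNCRNA_13511. At both probes all 4 DJB mice lay above every sham mouse in the relative log2 signal. The share of all tested probes with separate groups is not given here, so nothing is read from this. With no scaling the gap between the groups was 0.05 at MOUSELNCRNA_84129 and 0.01 at MOUSELNCRNA_13511. With spike-in scaling it was 0.02 at MOUSELNCRNA_84129. At MOUSELNCRNA_13511 it was then -0.02, with 3 of the 4 DJB mice above every sham mouse. These probes share mice, arrays and most of their bases with the Mcpt2 probe and are not independent evidence for it. Mcpt2 was itself chosen for this contrast, and its relatives were looked for after the values had been seen. The adjusted p values of the relatives are therefore given as a description, from which no conclusion is drawn. Some calls were lost when 1 mouse was left out, with differences of about the same size. MOUSELNCRNA_84129 lost its call without sham-3 (difference 3.03, adjusted p = 0.0616), sham-4 (3.26, 0.0548) or DJB-2 (3.18, 0.0521). MOUSELNCRNA_13511 lost it without any 1 of the 4 sham mice (differences from 2.63 to 2.91, adjusted p from 0.0572 to 0.0726), without DJB-2 (2.73, 0.0624) and with no filter on dim probes (0.0531). The size of the difference moved most with DJB-1 and DJB-3. It was 2.31 and 1.88 at the respective probes without DJB-1, and 4.04 and 3.44 without DJB-3, each more than 1.5 times in the fold and with the call kept. Over all alternatives the adjusted p ran from 0.0061 to 0.0616 for the first and from 0.0095 to 0.0726 for the second.

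Within an array, the Mcpt2 and MOUSELNCRNA_84129 signals kept a nearly constant distance in the DJB mice, with a log2 difference of -0.62 ± 0.08 (SD, n = 4) while the signals spanned 33.4-fold and 36.4-fold. In the sham mice it was -0.76 ± 0.43 (SD, n = 4), the spread including the discordant spots of sham-2. For MOUSELNCRNA_13511 the corresponding differences were 0.99 ± 0.22 and 0.36 ± 0.41 (SD, n = 4 each). Since probes bind with unequal strength, these distances give no ratio of transcripts.

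**Figure D4:**
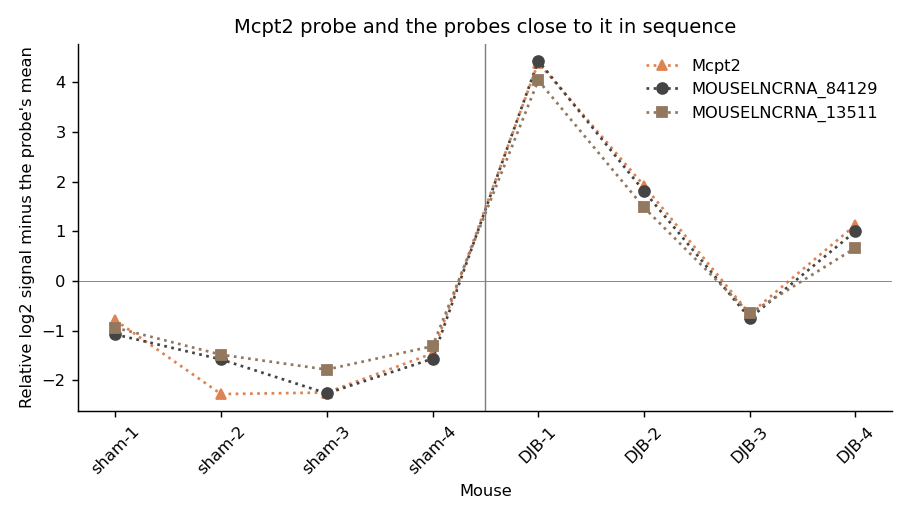
Relative log2 signal minus the probe's mean over the 8 arrays (vertical axis) in each mouse (horizontal axis) for Mcpt2 (triangles), MOUSELNCRNA_84129 (circles) and MOUSELNCRNA_13511 (squares). The vertical line parts sham from DJB, and dotted lines only join the values of one probe. In the DJB mice the curves run close together, highest in DJB-1 and lowest in DJB-3. In sham-2, where its spots disagree, the Mcpt2 curve lies below both other curves.

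Beyond these 2 probes, no tested probe scored above 20. A relation between sequence and pattern could therefore not be examined at intermediate scores. At alignment scores from 4 to 20, the median RMS distance from Mcpt2 lay between 2.04 and 2.21, the value of 2.04 being that of 1 probe, at a score of 20. Single probes came much closer, down to 0.47 at a score of 10, against 0.42 and 0.28 at the 2 relatives. The next closest sequence, with a score of 22, was too dim to be tested. It was well above background on 3 DJB arrays and on no sham array, with relative log2 signals of -1.21, -4.62, -5.78 and -4.31 in DJB-1 to DJB-4. DJB-1 was again the highest and DJB-3 the lowest, but DJB-4 was above DJB-2.

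**Figure D5:**
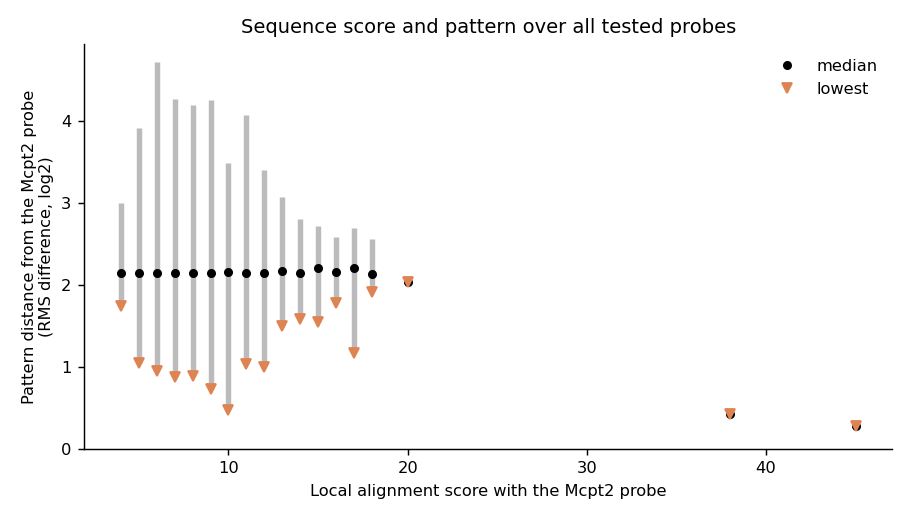
Local alignment score with the Mcpt2 probe (horizontal axis) against the RMS distance of the pattern over 8 arrays from that of the Mcpt2 probe (vertical axis, log2 units) for all tested probes. Dots are medians at each score, triangles the lowest value and grey bars the range from lowest to highest. The 2 probes scoring 38 and 45 lie at 0.42 and 0.28, while medians at lower scores lie between 2.04 and 2.21. The lowest value at those scores is 0.47, at a score of 10.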

How the data were processed

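The authors hybridized ileal RNA of 4 DJB and 4 sham mice to Agilent 1-colour arrays and deposited scanner files with a processed intensity per spot, which Agilent Feature Extraction had corrected for background and spatial trend (version 12.0.3.1 in the file headers, 11.0.1.1 in the submitters' processing notes) without scaling between arrays. Their deposited table of log2 values, made by a method not given in the sources used here, served as an alternative. Control spots and outlier-flagged spots were left out, log2 was taken, spots of a probe were averaged and the array's 75th percentile over transcript probes was subtracted. A probe counted as well above background if at least 1 unflagged spot was, and was tested if it did so on all arrays of 1 or both groups and had 2 or more values in each. The fit used limma 3.58.1 under R 4.3.3 (lmFit, then eBayes), with Benjamini-Hochberg adjustment over all 64408 tested probes. It was tested on simulated data. Probe sequences were aligned with Biopython 1.88.

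The 3 probes, the planned lists and the tests were chosen with earlier results of these data known. Gene names come from the study's list of leading mRNAs, and the tie between name and probe was not checked by sequence. Named in the text were the 3 members and, for each, the 3 probes with the closest pattern, of which those without a gene name appear by identifier only where a result turns on them. The relatives of the Mcpt2 probe were looked for after the values had been seen. With only probe identifiers and sequences in the files, the planned lists of mast cell, phospholipase, peptidase and type 2 signal genes and the cell type markers were not analysed here. Each mouse is a replicate, and the number of arrays limits the precision.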

Additional observations from a re-analysis of the deposited data

How the results depend on the processing

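Each of the 3 enzymes was higher after DJB under all alternatives run, which covered the scaling, the background correction, the authors' log2 values, single spots and each mouse left out. The difference moved by more than the larger of the group SDs only for Cpvl with normexp correction, at 1.59. That SD was the one of the DJB mice, 1.93 for Pla2g4c and 2.10 for Mcpt2, so wide shifts stay within it. With 1 mouse left out the difference ran from 6.11 to 7.49 for Pla2g4c, 3.80 to 4.35 for Cpvl and 2.49 to 4.17 for Mcpt2. The numbers of probes called higher and lower over the whole array, 830 and 1482, became 399 and 3255 with no scaling (89.1% lower, against 64.1%), 374 and 3521 with spike-in scaling (90.4% lower), 357 and 677 with normexp, and 14232 and 9322 with no minimum fold change, whose cause was not tested apart from the dropped threshold in the last. With 1 mouse left out they ran from 773 to 973 and from 1388 to 1754. The methods' t-test at their threshold gave 829 and 1480, and 725 and 1428 after Benjamini-Hochberg adjustment. Mice of the same replicate number did not deviate together (correlations from -0.02 to 0.01), so no pairing by number was seen over the tested probes as a whole. With the replicate number as a block the counts were 845 and 1469 and the enzyme differences were 6.72, 4.10 and 3.39. The block lowered the SE from 0.92 to 0.62 at MOUSELNCRNA_84129 and from 0.84 to 0.60 at MOUSELNCRNA_13511. No mouse correlated best with its own number in both directions. Signal over background limits Cpvl in the sham mice. The alternatives planned for the gene lists were not run, since the files name no genes.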
